A study of Mus musculus with 36 samples.

Results

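The liver releases glucose into the blood between meals and takes it up, stores it and breaks it down after them, and 9 genes of these routes were followed in mice lacking the necroptosis effector Mlkl in adipocytes. The 9 genes were Pck1, G6pc, Fbp1, Pcx, Slc37a4, Slc2a2, Tat, Gckr and Pklr. They were taken by symbol from the deposited table of 56748 genes, and all 9 were found there, each with 1 identifier. Their levels were described across the 4 groups of livers and set beside visceral fat of the same mice, to see what the genes show of feeding state and insulin action.

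Liver and visceral white adipose tissue (visWAT, the epididymal depot) were taken from 18 male mice, 1 polyA RNA-seq library per tissue and mouse, 36 libraries in all. Mlkl Adi-KO mice carried loxP-flanked Mlkl and the Adipo-Cre transgene, which acts in mature adipocytes. WT mice were littermates with the same floxed alleles but without Cre, and all mice were bred on C57BL/6J. From 16 weeks of age they ate a normal chow diet (NCD, 4 WT and 4 Mlkl Adi-KO mice) or a high-fat diet (HFD, 5 WT and 5 Mlkl Adi-KO mice) for 16 weeks with food always available. Whether food was withdrawn before collection, and the hour of collection, were not given in the sources used here. Mice are named below by their number in the labels, and the HFD mice (151 to 164) and NCD mice (165 to 199) do not share numbers.

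Gluconeogenesis builds glucose from lactate, amino acids and glycerol. Pyruvate carboxylase (Pcx) makes oxaloacetate from pyruvate, cytosolic phosphoenolpyruvate carboxykinase (Pck1) carries it on to phosphoenolpyruvate, fructose-1,6-bisphosphatase (Fbp1) removes a phosphate further up, and glucose-6-phosphatase (G6pc, fed by the glucose-6-phosphate carrier Slc37a4) sets glucose free, which leaves through the transporter GLUT2 (Slc2a2). Tyrosine aminotransferase (Tat) opens the breakdown of tyrosine, whose carbon can enter the route, and is a classical target of glucocorticoids. Gckr encodes a regulatory protein that restrains glucose phosphorylation in hepatocytes when glucose is low, and liver pyruvate kinase (Pklr) ends glycolysis and is switched on by glucose and insulin. In fasted liver, glucagon and glucocorticoids raise Pck1, G6pc and Tat, and insulin lowers them. In fat, Pck1 and Pcx serve glyceroneogenesis and citrate export rather than glucose release.

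Promoters of 4 of the 9 genes are printed, 2 of genes that fell in liver on HFD (Pck1 and Tat), 1 of a gene that rose (Pcx) and 1 of the gene with the smallest unadjusted p between genotypes on HFD (Gckr). Each is the stretch of 250 bases before the GENCODE start of the gene on GRCm39, read 5′ to 3′ on the gene's strand, which is the forward strand for all 4. Capitals mark a match to 1 of 5 motifs searched on both strands: the cAMP response element core ACGTCA, the FOXO motif TGTTTAC, the insulin response core TGTTTTG, the E-box CACGTG and the glucocorticoid half-site TGTTCT.
Pck1 (chr2:172994591-172994840): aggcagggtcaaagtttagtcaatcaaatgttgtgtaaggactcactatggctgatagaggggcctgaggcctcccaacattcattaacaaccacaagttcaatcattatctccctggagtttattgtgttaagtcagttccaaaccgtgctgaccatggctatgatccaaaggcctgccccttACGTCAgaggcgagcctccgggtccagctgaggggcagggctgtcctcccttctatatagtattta
Tat (chr8:110716813-110717062): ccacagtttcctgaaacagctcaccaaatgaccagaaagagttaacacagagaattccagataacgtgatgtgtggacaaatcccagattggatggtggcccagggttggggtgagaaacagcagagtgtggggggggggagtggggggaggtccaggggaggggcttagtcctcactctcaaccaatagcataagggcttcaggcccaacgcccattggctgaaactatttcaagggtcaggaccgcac
Pcx (chr19:4560235-4560484): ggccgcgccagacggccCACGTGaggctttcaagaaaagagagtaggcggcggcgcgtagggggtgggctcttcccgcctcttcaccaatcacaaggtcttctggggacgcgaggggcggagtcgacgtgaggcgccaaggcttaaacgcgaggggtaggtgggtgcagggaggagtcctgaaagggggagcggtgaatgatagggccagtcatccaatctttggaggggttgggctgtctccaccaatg
Gckr (chr5:31454537-31454786): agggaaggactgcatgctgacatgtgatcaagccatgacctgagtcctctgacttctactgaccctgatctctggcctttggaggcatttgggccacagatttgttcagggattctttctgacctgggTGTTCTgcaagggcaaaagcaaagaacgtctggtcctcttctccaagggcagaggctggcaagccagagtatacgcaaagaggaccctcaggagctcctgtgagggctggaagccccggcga
The Pck1 promoter held the cAMP response element core 66 bases before the start. That of Pcx held an E-box 233 bases before it and that of Gckr a glucocorticoid half-site 122 bases before it. The promoter of Tat and those of the other 5 genes held none of the 5 motifs in this window. Among the promoters of all 21770 protein-coding genes, 6.491% held the cAMP response element core, 2.719% the FOXO motif, 6.132% the insulin response core, 6.261% the E-box and 14.29% the glucocorticoid half-site. A match is a description of the letters only.

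The genes lie on 8 chromosomes, and all are protein-coding. On GRCm39, Pck1 spans chr2:172994841-173001066, G6pc (G6pc1 in GENCODE) chr11:101258387-101268729, Fbp1 chr13:63012567-63036096, Pcx chr19:4560500-4671780 and Slc37a4 chr9:44308149-44314265. Slc2a2 spans chr3:28752052-28785508, Tat chr8:110717069-110726435, Gckr chr5:31454787-31484658 and Pklr chr3:89043449-89054091. Fbp1 is on the reverse strand and the other genes are on the forward strand.

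Reads on genes per library ranged from 20875463 to 25530574 in liver and from 21580696 to 30322171 in visWAT. Liver libraries carried the summed signal of 12 hepatocyte markers at 59431 to 88486 FPKM, with none of the 12 at 0. Mlkl in visWAT was 4.58 to 6.28 FPKM in WT HFD mice and 2.32 to 2.72 in Mlkl Adi-KO HFD mice (log2 difference −0.83, adjusted p = 0.00162, limma). On NCD the visWAT library of WT mouse 182 held 2.29 FPKM of Mlkl, inside the Mlkl Adi-KO range of 1.96 to 2.49, and the genotypes did not pass the test (−0.61, adjusted p = 0.916). In liver, Mlkl passed the test in neither genotype comparison (adjusted p = 0.506 on HFD and 0.996 on NCD). Some libraries stood apart. The liver of WT NCD mouse 182 deviated from its group mean with an SD of 0.57 on the log2 scale, against 0.22 to 0.33 in the other 17 livers. Its summed stellate cell and fibroblast markers were 116 FPKM against 29.0 to 38.2 in its group, its cholangiocyte markers 167 against 22.6 to 38.1, and its hepatocyte markers lay within the range of its group (77177 of 75189 to 84321). In visWAT, mouse 183 (WT NCD) carried 256018 FPKM of seminal vesicle and epididymis markers, and mouse 156 (Mlkl Adi-KO HFD) carried hepatocyte markers, described below with the fat. In bulk tissue, fewer cells of a type and less RNA per cell cannot be told apart.

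In liver of WT mice on NCD, Pck1 and Tat were the most abundant of the 9 genes. Pck1 averaged 1664 ± 375 FPKM (SD, n = 4) and Tat 1479 ± 346, and their ranges overlapped. Fbp1 followed at 651 ± 79.2, apart from both of its neighbours. G6pc (275 ± 92.0) and Pcx (174 ± 34.9) came next with overlapping ranges. The lowest 4 were Slc2a2 (84.7 ± 15.2), Pklr (79.3 ± 29.0), Slc37a4 (72.0 ± 19.3) and Gckr (68.8 ± 6.93), whose ranges overlapped from each to the next. In WT mice on HFD the order ran Fbp1, Pck1, Tat, Pklr, Pcx, G6pc, Slc37a4, Slc2a2 and Gckr. There Fbp1 overlapped Pck1, Pck1 overlapped Tat, Pklr overlapped Pcx and Pcx overlapped G6pc, while the other neighbours were apart. Pklr thus moved from 7th to 4th place in WT mice, and from 7th to 5th in Mlkl Adi-KO mice. The order of the means was the same in every liver group when FPKM were rescaled to an equal sum.

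**Figure D1:**
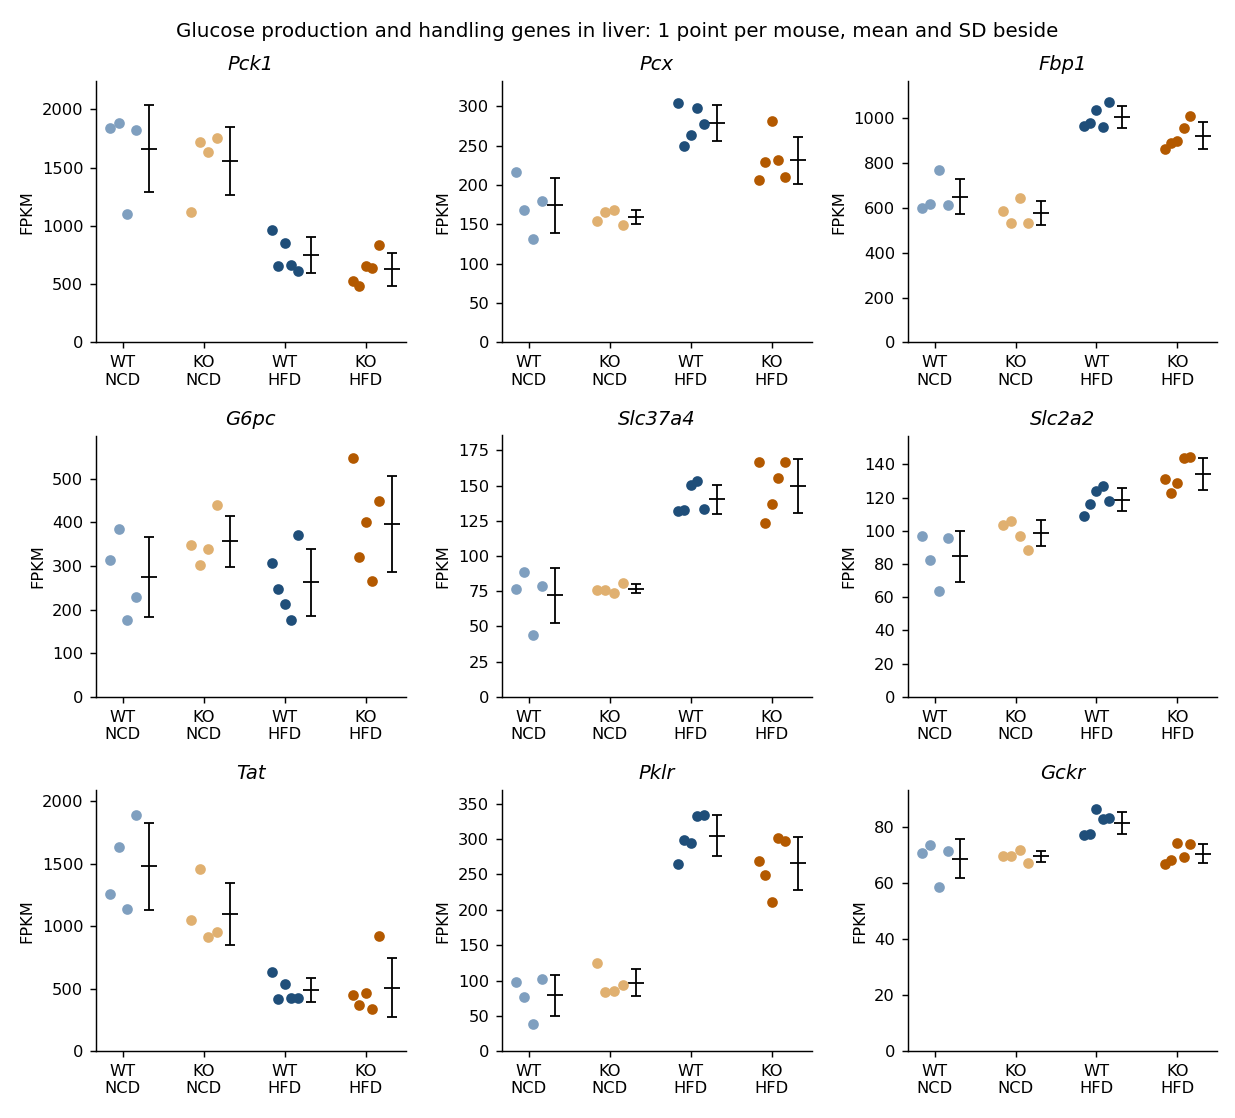
FPKM of each of the 9 genes (vertical axes, each from 0) in the 4 groups of livers (horizontal axes), 1 point per mouse with the mean and SD beside. Pck1 and Tat sit lower on HFD in both genotypes, Pklr, Fbp1, Slc37a4, Pcx and Slc2a2 sit higher, and G6pc overlaps between diets.

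HFD divided the 9 genes in the liver of WT mice. Pck1 and Tat fell, while Pklr, Slc37a4, Pcx, Fbp1, Slc2a2 and Gckr rose, and G6pc did not pass the test. Of the 9 genes, 8 passed an adjusted p of 0.05 (limma on log2(FPKM + 1), Benjamini-Hochberg over 13330 genes), 6 upward and 2 downward. Over all genes tested, 25.3% passed, 13.2% higher and 12.1% lower on HFD. The median log2 change of the 9 was 0.50 beside −0.00 over all genes. The ranges of the diet groups did not overlap for 8 of the 9 genes, which was so for 24.8% of all genes. Of the 9, 7 passed in Mlkl Adi-KO mice, 5 upward and 2 downward, against 22.2% of 13149 genes (11.9% higher and 10.3% lower). There the groups did not overlap for 6 of the 9, against 21.5% of all genes, and the median log2 change of the 9 was 0.44 beside 0.00. The diet effects of the 2 genotypes come from different mice.

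Pck1 (cytosolic phosphoenolpyruvate carboxykinase) measured 1844, 1884, 1102 and 1824 FPKM in WT NCD mice 165, 180, 182 and 183, and 968, 652, 850, 662 and 615 in WT HFD mice 154, 155, 161, 162 and 164. Every HFD liver was below every NCD liver. The mean was 2.22-fold lower on HFD (log2 change −1.14, SE 0.195, adjusted p = 0.00303). Mlkl Adi-KO mice had 1122, 1717, 1632 and 1758 on NCD (mice 166, 179, 197 and 199) and 523, 481, 658, 641 and 841 on HFD (mice 151, 152, 153, 156 and 157). Again the groups were apart, with a mean 2.48-fold lower on HFD (−1.31, adjusted p = 0.0012). The lowest NCD value of each genotype stood apart from the other 3, and without mouse 182 the WT change was −1.33 (adjusted p = 0.000342).

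Tat (tyrosine aminotransferase) measured 1256, 1632, 1138 and 1890 FPKM in the same order of WT NCD mice and 634, 423, 537, 425 and 429 in WT HFD mice. The diets did not overlap, and the mean was 3.02-fold lower on HFD (−1.58, SE 0.178, adjusted p = 0.000367). Mlkl Adi-KO mice had 1049, 1457, 916 and 958 on NCD and 449, 373, 468, 340 and 923 on HFD. Of these HFD livers 4 lay under every NCD liver, and mouse 157 lay between NCD mice 197 and 199. The mean was 2.14-fold lower (−1.17, adjusted p = 0.0134).

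Glucose-6-phosphatase and its carrier parted. G6pc, the last step of glucose release, measured 313, 385, 176 and 228 FPKM in WT NCD mice and 306, 247, 212, 176 and 371 in WT HFD mice. The diets overlapped over most of their range, and the log2 change was −0.06 (95% confidence interval −0.66 to 0.54, adjusted p = 0.902). In Mlkl Adi-KO mice the change was 0.12 (−0.32 to 0.57, adjusted p = 0.708). Slc37a4, which carries glucose-6-phosphate to that enzyme, was 76.4, 88.6, 44.0 and 78.9 in WT NCD mice and 132, 132, 150, 153 and 134 in WT HFD mice. It rose 1.95-fold in WT mice (1.0, SE 0.178, adjusted p = 0.00375) and 1.95-fold in Mlkl Adi-KO mice (0.95, adjusted p = 0.000216), with the diets apart in both.

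Fbp1 (fructose-1,6-bisphosphatase) measured 602, 616, 769 and 615 FPKM in WT NCD mice and 968, 978, 1039, 963 and 1073 in WT HFD mice. It rose 1.54-fold in WT mice (0.63, SE 0.0845, adjusted p = 0.000833) and 1.6-fold in Mlkl Adi-KO mice (0.68, adjusted p = 0.000496), and the diets were apart in both genotypes. Pcx (pyruvate carboxylase) was 216, 168, 132 and 180 in WT NCD mice and 305, 249, 263, 298 and 278 in WT HFD mice. It rose 1.6-fold in WT mice (0.69, SE 0.13, adjusted p = 0.00469) and 1.45-fold in Mlkl Adi-KO mice (0.53, adjusted p = 0.00398). Among the gluconeogenic enzymes, Fbp1 and Pcx therefore stood higher on HFD in the same livers in which Pck1 stood lower.

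Slc2a2 (GLUT2) was 96.8, 82.4, 64.0 and 95.5 FPKM in WT NCD mice and 109, 116, 124, 127 and 118 in WT HFD mice. It rose 1.40-fold in WT mice (0.50, SE 0.116, adjusted p = 0.0128) and 1.36-fold in Mlkl Adi-KO mice (0.44, adjusted p = 0.00342).

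Pklr (liver pyruvate kinase), the glycolytic gene of the 9, changed most. It measured 98.3, 76.6, 39.3 and 103 FPKM in WT NCD mice and 264, 299, 294, 332 and 333 in WT HFD mice. The lowest HFD liver was above the highest NCD liver by more than the spread of either group, and the mean was 3.84-fold higher (2.01, SE 0.25, adjusted p = 0.000576). In Mlkl Adi-KO mice it rose from 125, 83.9, 85.5 and 93.5 on NCD to 269, 249, 211, 301 and 297 on HFD (2.74-fold, 1.45, adjusted p = 0.000198). Without mouse 182, which held the lowest Pklr of all livers, the WT change was 1.71 (adjusted p = 3.09e-05).

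Gckr (the regulator of glucose phosphorylation) was 71.0, 73.9, 58.6 and 71.7 FPKM in WT NCD mice and 77.3, 77.6, 86.7, 83.0 and 83.4 in WT HFD mice. The WT diets were apart by a narrow margin and the mean was 1.19-fold higher (0.25, SE 0.0743, adjusted p = 0.0373). This call was lost when any of 7 mice was left out (165, 183, 154, 155, 161, 162 or 164, adjusted p = 0.0501 to 0.0846), and without mouse 182 the change was 0.17 (adjusted p = 0.0297). In Mlkl Adi-KO mice the diets overlapped, at 69.8, 69.95, 72.0 and 67.2 on NCD and 67.0, 68.4, 74.4, 69.5 and 74.1 on HFD (0.02, 95% confidence interval −0.10 to 0.14, adjusted p = 0.845). Leaving out mouse 182 kept all 8 WT calls, with log2 changes of −1.70 for Tat, 0.78 for Slc37a4, 0.71 for Fbp1, 0.57 for Pcx and 0.37 for Slc2a2, and of −0.25 for G6pc (adjusted p = 0.50).

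**Figure D2:**
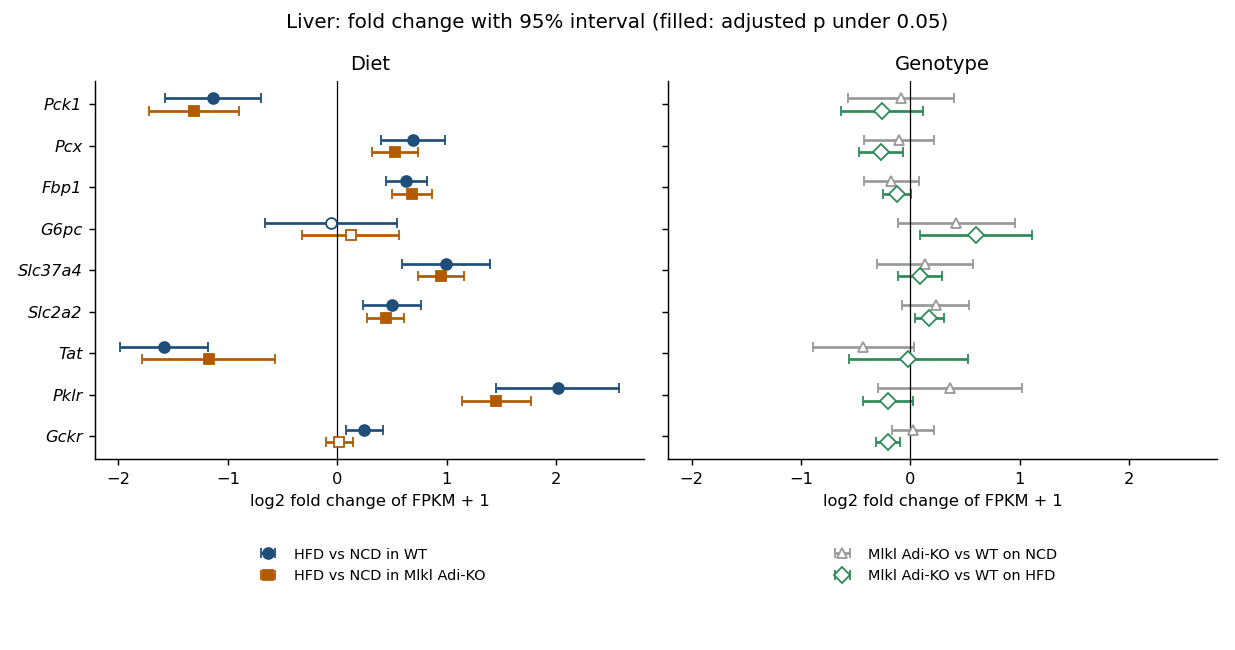
Log2 fold change of FPKM + 1 (horizontal axis) with its 95% confidence interval for each of the 9 genes, for HFD against NCD in each genotype and Mlkl Adi-KO against WT on each diet. The diet intervals exclude 0 for 8 genes in WT and 7 in Mlkl Adi-KO mice, and the genotype intervals on HFD exclude 0 for 4 genes, none of which passed after adjustment.

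On HFD, no gene of the 9 passed the test between Mlkl Adi-KO and WT livers (limma, adjusted p 0.148 or more), beside 0.197% of 13215 genes. At an unadjusted p of 0.05, 4 of the 9 passed, Gckr, Pcx, Slc2a2 and G6pc, beside 12.6% of all genes. edgeR also called none of the 9 and DESeq2 called 1, Gckr (log2 −0.21, adjusted p = 0.00572). Gckr was the only gene of the 9 whose groups did not overlap, which was so for 2.62% of all genes. Its highest Mlkl Adi-KO liver measured 74.4 FPKM and its lowest WT liver 77.3 (1.15-fold lower, log2 −0.20, 95% confidence interval −0.31 to −0.09, adjusted p = 0.148).

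G6pc showed the largest difference in size between the genotypes on HFD. It measured 546, 321, 400.5, 266 and 450 FPKM in Mlkl Adi-KO mice and 306, 247, 212, 176 and 371 in WT mice, so that 3 Mlkl Adi-KO livers lay above every WT liver and the groups overlapped. The mean was 1.51-fold higher in Mlkl Adi-KO mice (0.60, 95% confidence interval 0.09 to 1.11, adjusted p = 0.337). Pck1 differed by −0.26 (−0.63 to 0.12, adjusted p = 0.577) and Tat by −0.02 (−0.56 to 0.52, adjusted p = 0.988). Pcx differed by −0.27 (adjusted p = 0.273), Slc2a2 by 0.17 (adjusted p = 0.293), Pklr by −0.20 (adjusted p = 0.460), Fbp1 by −0.12 (adjusted p = 0.439) and Slc37a4 by 0.09 (adjusted p = 0.750). The intervals leave room for differences of the size given by their bounds.

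On NCD, no gene of the 9 passed between the genotypes (adjusted p = 0.996 for each, limma), beside 0.00758% of 13193 genes. None was under an unadjusted p of 0.05 by limma, where 4.35% of all genes were, and edgeR and DESeq2 each had 1 of the 9 under it and called none. G6pc was again higher in Mlkl Adi-KO mice in size (347, 302, 339 and 439 FPKM against 313, 385, 176 and 228, log2 0.42, 95% confidence interval −0.11 to 0.95). Tat differed by −0.43 (−0.89 to 0.03). None of the 9 genes had groups that did not overlap, which was so for 2.8% of all genes. This comparison shares its WT NCD livers with the WT diet comparison, mouse 182 among them, without which G6pc differed by 0.23 and Tat by −0.55.

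The diet effect itself was tested between the genotypes with an interaction term over all 18 livers. None of the 9 passed, beside 0.0151% of 13248 genes. By limma, edgeR and DESeq2 alike, 1 of the 9 was under an unadjusted p of 0.05, beside 6.12%, 6.40% and 6.23% of all genes. By limma it was Gckr, whose diet effect was 0.23 lower on the log2 scale in Mlkl Adi-KO mice (interaction −0.23, 95% confidence interval −0.42 to −0.04, unadjusted p = 0.0208, adjusted p = 0.667), and −0.15 without mouse 182 (adjusted p = 0.639). The rise of Pklr was smaller in Mlkl Adi-KO mice by a margin that did not pass (−0.56, −1.21 to 0.08, adjusted p = 0.890), and without mouse 182 the term was −0.26 (adjusted p = 0.805).

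Enzymes that face each other at a step were set side by side as log2 ratios of FPKM within each liver. Pck1 over Pklr, at the phosphoenolpyruvate step, averaged 4.45 ± 0.32 (SD, n = 4) in WT NCD and 1.28 ± 0.41 (n = 5) in WT HFD livers. In Mlkl Adi-KO livers it averaged 4.0 ± 0.56 on NCD and 1.23 ± 0.32 on HFD. As plain ratios the medians went from 21.5 to 2.18 in WT and from 18.9 to 2.13 in Mlkl Adi-KO mice. Fbp1 over the liver phosphofructokinase Pfkl moved less, from 6.37 and 6.31 on NCD to 6.75 and 6.83 on HFD.

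**Figure D3:**
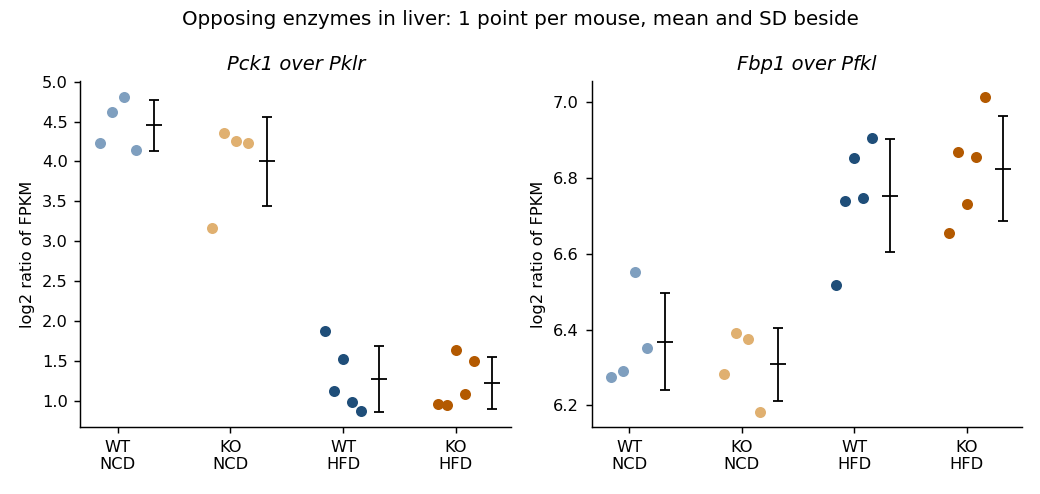
Log2 ratio of FPKM (vertical axes) of enzymes that face each other, 1 point per liver in the 4 groups, with the mean and SD beside. Pck1 over Pklr falls from means of 4.45 and 4.0 on NCD to 1.28 and 1.23 on HFD, while Fbp1 over Pfkl, on an axis of narrower range, goes from 6.37 and 6.31 to 6.75 and 6.83.

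The rest of the pathway did not move as 1 block. Beside the liver lists that follow, 13.2% of all genes rose and 12.1% fell in WT mice on HFD. In Mlkl Adi-KO mice 11.9% rose and 10.3% fell. Of 17 shared enzymes of glycolysis and gluconeogenesis tested in WT livers, 5 rose and 1 fell on HFD (median log2 change 0.01), among the former the enolase Eno1 (0.25, adjusted p = 0.0171) and the phosphofructokinase Pfkl (0.22, adjusted p = 0.0208). Of 25 genes that feed substrate into the route 9 rose and 5 fell (median 0.08). Pdk4, a brake on pyruvate oxidation that rises in fasting, fell by 1.39, Agxt (alanine-glyoxylate aminotransferase) fell by 0.89, and Gpt2 (alanine aminotransferase) rose by 0.55. Of 12 glycogen genes 5 rose and 2 fell (median 0.17), with the glycogen synthase Gys2 up by 0.90 and the phosphatase targeting subunit Ppp1r3g down (−1.58, adjusted p = 0.0132). In Mlkl Adi-KO livers the counts were 2 up and 1 down of 17, 8 up and 3 down of 25, and 5 up and 1 down of 12.

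Regulators split in the same way. Of 17 transcriptional regulators of gluconeogenesis, 4 rose and 4 fell in WT livers on HFD (median −0.07) and 5 rose and 2 fell in Mlkl Adi-KO livers (median 0.10). The coactivator Ppargc1a fell by 1.09 in WT mice (adjusted p = 0.000228) and by 1.0 in Mlkl Adi-KO mice (adjusted p = 0.00639). Klf15, a driver of amino acid breakdown in fasting, fell by 0.75 in WT mice (adjusted p = 0.0043) and by 0.75 in Mlkl Adi-KO mice (adjusted p = 0.0124). Nr0b2 (SHP) fell by 2.01 in WT mice, from 56.3 ± 9.71 to 14.6 ± 8.89 FPKM. Of 11 genes listed as insulin and glucagon receptors and proximal signalling, 3 rose and 2 fell in WT mice. The list held Gckr of the 9 genes, which was among the 3 that rose. The fasting-induced Akt inhibitor Trib3 fell by 1.56 and the glucagon receptor Gcgr rose by 0.41.

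Of 16 genes known to rise in fasting, Pck1, Ppargc1a and Pdk4 among them, 6 fell and 3 rose in WT livers on HFD (median −0.40, all genes −0.00) and 9 fell and 2 rose in Mlkl Adi-KO livers (median −0.83). Cyp4a14, a target of PPARα, fell by 2.34 in WT mice (1001 ± 258 to 196 ± 42.6 FPKM) and by 3.26 in Mlkl Adi-KO mice. Igfbp1, which insulin suppresses, went from 122 ± 49.3 to 36.4 ± 8.19 FPKM in WT mice (−1.66, adjusted p = 0.00119) and from 130 ± 68.9 to 12.7 ± 3.84 in Mlkl Adi-KO mice (−3.12, adjusted p = 0.00102). Between genotypes on HFD, Igfbp1 was lower in Mlkl Adi-KO livers (−1.49, adjusted p = 0.0401), as was Lpin1, a phosphatidate phosphatase and coactivator that fasting induces (23.4 ± 6.43 against 66.8 ± 15.9 FPKM, −1.48, adjusted p = 0.0171). These were the 2 of 16 fasting-induced genes that passed there, beside 0.197% of all genes.

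Genes known to be induced by glucose and insulin went both ways. Of 16, Pklr among them, 6 rose and 6 fell in WT livers (median −0.07), and 4 rose and 4 fell in Mlkl Adi-KO livers (median 0.15). Thrsp, a lipogenic gene, rose by 1.95 in WT mice beside Pklr, whereas Pnpla3 fell by 2.02 and the stearoyl-CoA desaturase Scd1 fell by 1.39 (7534 ± 1389.6 to 2891 ± 605 FPKM). In Mlkl Adi-KO mice Thrsp rose by 1.83 and Scd1 fell by 2.0. Of 11 glucocorticoid-induced genes, Tat among them, 4 fell and 2 rose in each genotype (medians −0.43 and −0.47). Zbtb16 fell by 2.91 in WT mice and the metallothionein Mt1 rose by 2.72.

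**Figure D4:**
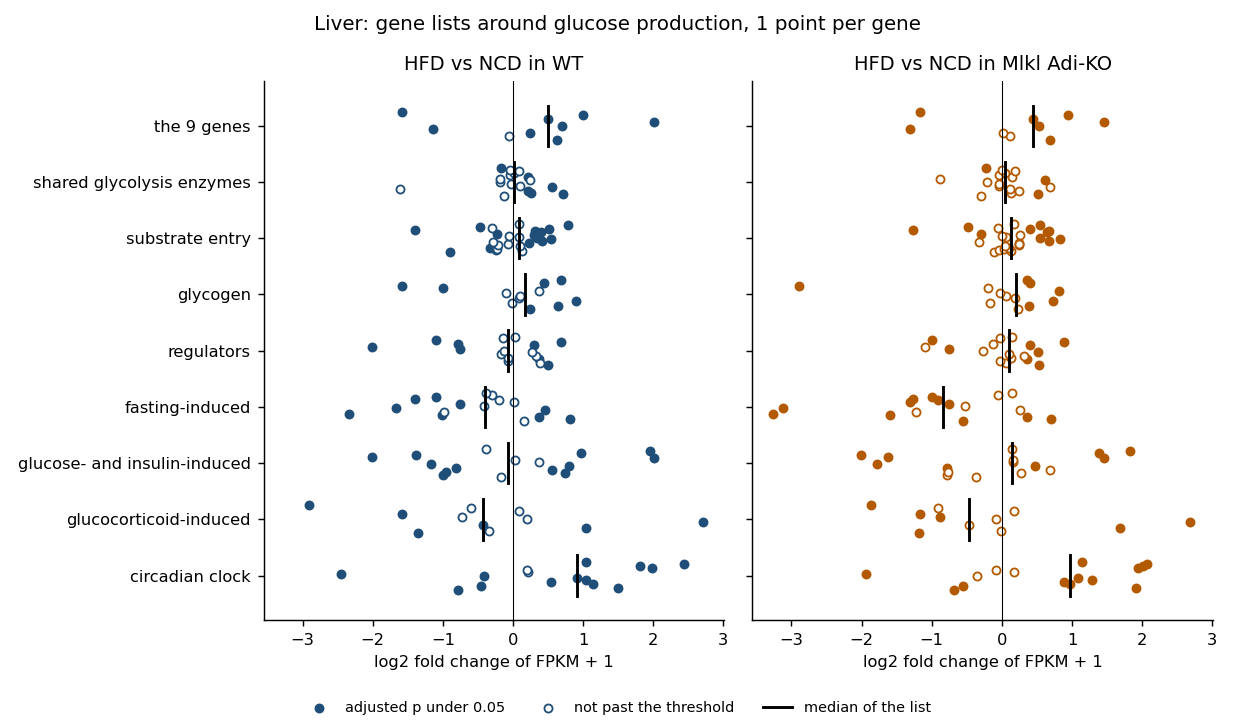
Log2 fold change of FPKM + 1 on HFD against NCD (horizontal axis) for each tested gene of 9 lists in liver, WT on the left and Mlkl Adi-KO on the right. Filled points passed an adjusted p of 0.05 and the black bars are list medians. Fasting-induced genes have medians of −0.40 and −0.83, clock genes of 0.92 and 0.98, and the lists around glucose production spread to both sides of 0.

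The clock genes of the liver moved with the diet groups too. Of 15 tested, 9 rose and 4 fell in WT mice and 9 rose and 3 fell in Mlkl Adi-KO mice, with medians of 0.92 and 0.98. Nr1d1 (REV-ERBα) went from 64.8 ± 12.0 to 10.9 ± 1.27 FPKM in WT mice (−2.45, adjusted p = 7.94e-06) and Per2 from 3.97 ± 1.72 to 17.8 ± 0.712 (1.98, adjusted p = 0.000173). Pck1, Tat, G6pc and Klf15 are known to vary over the day. The part of collection time or feeding state in the diet results was not tested, and whether HFD and NCD mice were collected together was not given in the sources used here. Between genotypes on HFD none of 14 clock genes passed by limma or edgeR and 2 did by DESeq2, and 7 of the 14 were under an unadjusted p of 0.05 by each tool.

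Other cell types and zones of the liver were checked by their markers. Adipocyte markers in liver summed to 48.5 to 72.0 FPKM in WT NCD, 45.3 to 76.3 in Mlkl Adi-KO NCD, 142 to 215 in WT HFD and 64.1 to 173 in Mlkl Adi-KO HFD livers, and 4 of 6 tested rose in WT mice, Cidec and Cfd among them. Their part in the diet results was not tested. Of 12 periportal hepatocyte genes, where gluconeogenesis is strongest, 2 rose and 3 fell in WT mice, Pck1 itself the largest fall. Of 12 pericentral genes 4 rose and 3 fell. Without the liver of mouse 182, 1 periportal gene rose and 4 fell, and 7 pericentral genes rose and 3 fell. In the same fit 6 of the 11 glucocorticoid-induced genes fell and 2 rose, and the clock median was 0.67. On HFD, 2 of the 12 pericentral genes, Tbx3 (0.80, adjusted p = 0.0188) and Axin2 (0.49, adjusted p = 0.0188), were higher in Mlkl Adi-KO livers. Of all genes, 0.197% passed there in either direction.

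Across the 18 livers the 9 genes fell into opposite sides. Pck1 and Tat correlated at r = 0.92, and Pklr with Slc37a4 at 0.96, with Slc2a2 at 0.90 and with Pcx at 0.85. Pck1 and Pklr correlated at −0.80. G6pc stayed near 0 with the other 8 (−0.15 to 0.24). These values describe log2(FPKM + 1) over libraries that share a diet within a group. After the group means were taken off, Pck1 with Tat stood at 0.64, Pklr with Slc2a2 at 0.85 and Pklr with Slc37a4 at 0.76, whereas Pck1 with Pklr stood at 0.25 and Fbp1 with the other 8 at −0.53 to −0.09. These deviations leaned on the liver of mouse 182. Without it Pck1 with Tat stood at 0.61 and Pklr with Slc2a2 at 0.61, but Pklr with Slc37a4 at 0.23, Pck1 with Pklr at −0.39 and Fbp1 with the other 8 at −0.10 to 0.59. Before the group means were taken off, leaving out that liver gave 0.92 for Pck1 with Tat, 0.94 for Pklr with Slc37a4 and −0.91 for Pck1 with Pklr, and −0.53 to 0.11 for G6pc with the other 8.

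Among 9923 liver genes, the pattern nearest to Pck1 over the 18 livers was that of Klf15 (r = 0.967, and 0.890 after removal of group means, or 0.967 and 0.868 without mouse 182), followed by Ap2a2 (0.940) and Pnkd (0.939). Klf15 was also nearest to Tat (0.924), with Tmem147 and Hspa5 next (both 0.919). Nearest to Pklr were Ddo (0.977), D5Ertd579e (0.967) and Extl1 (0.963). Nearest to Slc37a4 were Masp2 (0.984), Naa60 (0.982) and Saa4 (0.978), and to Pcx Vwa8 (0.982), Cryz (0.972) and Hsd17b10 (0.962). Near to Fbp1 were Nnmt (0.955) and Nrg4 (0.947), and the nearest to Slc2a2 were Tmem18 (0.958), Peli2 (0.953) and Ccdc57 (0.949). G6pc and Gckr had weaker partners, Slc25a25 (0.832), Mak16 (0.828) and Clp1 (0.806) for G6pc and Ormdl3 (0.878), Slc12a9 (0.845) and Mrs2 (0.836) for Gckr.

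In visWAT, 6 of the 9 genes were near absent. Outside mouse 156, G6pc reached at most 0.701 FPKM, Gckr 0.191, Slc2a2 0.311, Tat 1.15, Pklr 1.32 and Fbp1 2.56, and Pklr was listed at 0 in all 4 WT NCD mice. Pck1, Pcx and Slc37a4 were expressed. Liver was higher than visWAT for 8 of the 9 genes over all 36 libraries, against 87% of 14657 genes that differed and 44.5% that were higher in liver. The log2 difference was 9.06 for Tat, 8.95 for Fbp1, 7.98 for G6pc, 7.14 for Pklr, 6.50 for Slc2a2, 6.11 for Gckr, 3.66 for Slc37a4 and 1.92 for Pck1. Pcx did not pass between the tissues on this scale (−0.07, 95% confidence interval −0.46 to 0.31, adjusted p = 0.723), and it was lower in liver when FPKM were rescaled to an equal sum (−1.05, adjusted p = 6.35e-06), which shifted the median of all genes by −0.84.

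**Figure D5:**
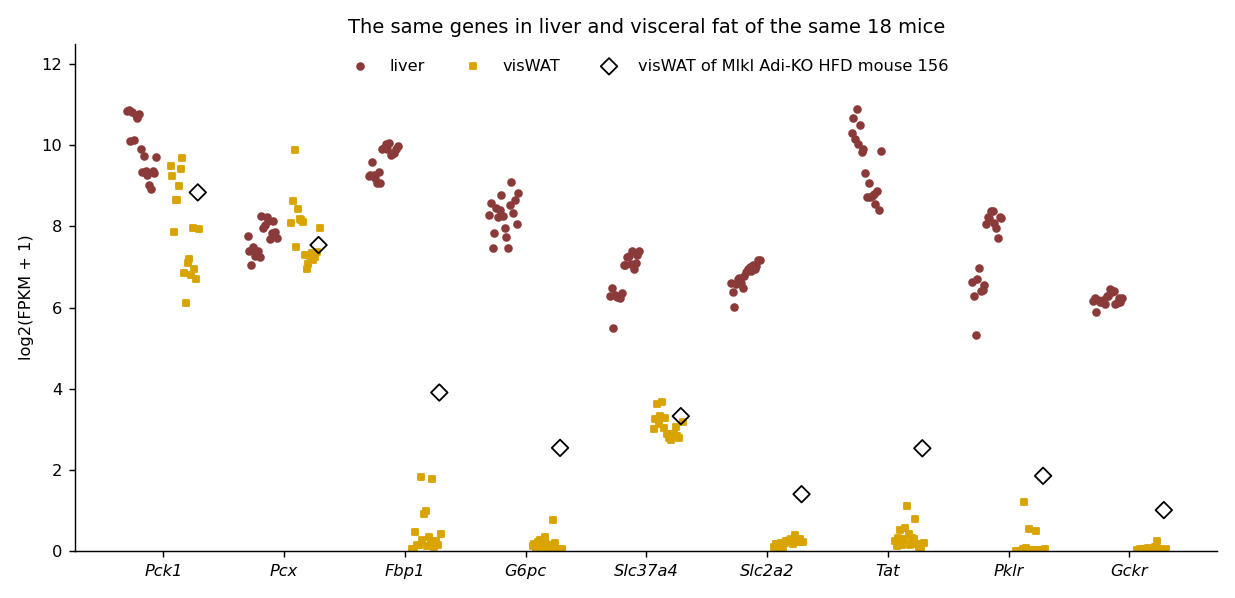
log2(FPKM + 1) of the 9 genes (vertical axis) in liver (circles) and visWAT (squares) of the same 18 mice, 1 point per library, with the visWAT library of Mlkl Adi-KO HFD mouse 156 as an open diamond. Pcx and Pck1 reach liver-like or near-liver levels in fat, and Slc37a4 lies between. The other 6 genes are highest in fat in mouse 156 and reach at most 2.56 FPKM (Fbp1) in the other fat libraries.

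The fat of mouse 156 carried more of these genes than any other. It held 13.98 FPKM of Fbp1, 4.82 of G6pc, 4.78 of Tat, 2.61 of Pklr, 1.64 of Slc2a2 and 1.01 of Gckr, which were 0.562% to 1.73% of the liver means. Of 11 hepatocyte markers (without Cyp2e1, which fat expresses), 10 were highest in this library, and their sum was 1041 FPKM against 2.69 to 162 in the other 17 fat libraries. Albumin stood at 460 FPKM, or 1.34% of its liver mean, and 53.2 at most elsewhere in fat. The part of RNA from liver in this library was not tested. G6pc and Tat passed the level filter of the visWAT comparisons with Mlkl Adi-KO HFD mice through this library. Without it 4 of the 9 genes were tested there (Pck1, Pcx, Slc37a4 and Fbp1). Outside mouse 156, Fbp1 was highest in the fat of mice 179 (2.56 FPKM) and 164 (2.42 FPKM), and at most 0.968 in the others.

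Pck1 and Pcx fell in fat on HFD, as Pck1 did in liver, where Pcx rose. In WT visWAT, Pck1 measured 724, 611, 231 and 402 FPKM on NCD and 114, 67.8, 136, 145 and 112 on HFD, with the diets apart (−2.01, SE 0.345, adjusted p = 0.00156). Pcx measured 270, 393, 945 and 180 on NCD, the highest in mouse 182, and 156, 123, 134, 154 and 162 on HFD (−1.33, SE 0.402, adjusted p = 0.0272). Without the fat of mouse 182 the change was −0.88 for Pcx (adjusted p = 0.0149) and −2.33 for Pck1 (adjusted p = 0.000274). Slc37a4 went from 8.66 ± 1.82 to 6.12 ± 0.348 FPKM (−0.42, adjusted p = 0.0164, or −0.30 and 0.01 without mouse 182). Without the fat of mice 182 and 183 Pcx changed by −1.16 and Pck1 by −2.57, both still past the threshold. All 3 of the 9 genes that were tested there fell, beside 37.8% of 14161 genes called and 15.8% called lower. Rescaling FPKM to an equal sum moved the median of all genes by 0.42 and left Pck1 past the threshold (−1.53, adjusted p = 0.0158), but neither Pcx (−0.86, adjusted p = 0.191) nor Slc37a4 (−0.00, adjusted p = 0.993). It also turned the split of called genes from 3108 higher and 2239 lower to 3805 and 227. The Pcx call was also lost without mouse 180, 155 or 161 (adjusted p = 0.0661, 0.0627 and 0.0596).

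In Mlkl Adi-KO visWAT, 2 of 6 genes tested fell on HFD, beside 43.7% of 14026 genes called and 20.3% called lower. Pck1 measured 404, 512, 684 and 823 FPKM on NCD and 247, 124, 102, 457 and 244 on HFD (−1.52, adjusted p = 0.0176). Only mouse 156 overlapped the NCD range, and the call was lost without NCD mouse 199 (−1.35, adjusted p = 0.0519). Without mouse 156 it was −1.81 (adjusted p = 0.00375). Pcx went from 298 ± 32.7 to 178 ± 41.6 FPKM (−0.76, adjusted p = 0.00494), a call that was lost with all 4 groups of fat in one fit (adjusted p = 0.0680), and Slc37a4 did not pass (−0.29, adjusted p = 0.140). Between genotypes in fat none of the 9 passed, with 6 tested on HFD (0.0215% of all genes called, 1 of the 6 at an unadjusted p of 0.05 by limma and edgeR and 2 by DESeq2, beside 21.5%, 21.4% and 23.8% of all genes, none called by these) and 4 tested on NCD (0% called). On HFD Pck1 was 0.87 higher in Mlkl Adi-KO fat by size (unadjusted p = 0.046, adjusted p = 0.231), with mouse 156 the highest, and without that mouse the difference was 0.58 (unadjusted p = 0.0979, adjusted p = 0.409). On NCD, 528 of 14063 genes were under an unadjusted p of 0.05 by limma, none of the 4 among them. By edgeR and DESeq2 1 of the 4 was under it, beside 4.37% and 4.73% of all genes. After adjustment edgeR called 0 genes and DESeq2 8, none of them among the 4. The interaction of genotype and diet in fat called 0% of 14136 genes and none of 5 tested (limma, 1867 genes under an unadjusted p of 0.05, edgeR 0 called, DESeq2 20 called, again none of the 5). At an unadjusted p of 0.05, limma and edgeR had 0 of the 5 and DESeq2 1, beside 13.2%, 14.4% and 15.5% of all genes.

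Fat markers moved with the fat results, where 37.8% of all genes passed in WT mice on HFD and 15.8% were called lower. Summed adipocyte markers were 10919 to 22035 FPKM in WT NCD and 5052 to 6451 in WT HFD visWAT, and 9 of 11 macrophage markers rose in WT mice. Of 16 genes of glyceroneogenesis and glucose uptake in adipocytes, 6 fell and 1 rose in WT mice, led by Pck1, the insulin-responsive transporter Slc2a4 (83.3 ± 52.7 to 20.7 ± 3.85 FPKM, −1.80, adjusted p = 0.00244), the glucose sensor Mlxipl (−1.76, adjusted p = 0.000788) and Hk2 (−1.40, adjusted p = 0.00176). Their part in the fall of Pck1 and Pcx was not tested.

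Whether the diet effect differed between liver and fat of WT mice was tested with an interaction term, which passed for 5 of the 9 genes, beside 40% of 14746 genes. Pcx gave the widest difference (2.03, 95% confidence interval 1.08 to 2.97, adjusted p = 0.00179), rising in liver and falling in fat. Slc37a4 differed likewise (1.42, 0.95 to 1.89, adjusted p = 9.44e-05). Tat (−1.67, adjusted p = 2.98e-05), Pklr (1.80, adjusted p = 0.000149) and Slc2a2 (0.37, adjusted p = 0.0379) also passed, though all 3 were near absent in fat, so that on log2(FPKM + 1) the term mostly carries the liver change. On recovered reads the terms for Pklr and Slc2a2 changed sign. For Pklr the term was −4.82 with edgeR (adjusted p = 0.146) and −4.60 with DESeq2, where it passed in the opposite direction (adjusted p = 0.0304). For Slc2a2 it was −0.49 and −0.52 and passed with neither. With the mouse as a block, Slc2a2 no longer passed (adjusted p = 0.0750) and Pck1, which fell in both tissues and more in fat, did (0.87, adjusted p = 0.0354 with the block and 0.111 without). Without the fat of mice 182 and 183 the term for Pck1 was 1.43 (adjusted p = 0.00381).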

How the data were processed

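PolyA RNA-seq libraries of liver and visWAT were made from the same mice. Per the methods and labels, the authors cleaned reads with fastp, aligned these with HISAT2 on mm39 and assigned them to genes with featureCounts 1.5.0-p3, with strand setting, annotation release and handling of multi-mapping reads not given in the sources used here. The deposited table gives FPKM (fragments per kilobase of gene length and library size) for 56748 genes, scaled by the authors between libraries, with gene lengths. Raw read counts, deposited only for the genes listed in each of 4 genotype comparisons, gave the library size behind each FPKM column, and so the reads. The authors' fold changes, p-values and pathway tables, and 72 further per-sample columns, were not used.

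Values of each library were taken from the FPKM table. The test was limma 3.58.1 with a mean trend on log2(FPKM + 1), two-sided, on genes with a mean of at least 0.5 FPKM over the libraries compared, with only the groups compared in the fit and Benjamini-Hochberg adjustment over all genes tested (threshold 0.05). A fold change on this scale understates the change of low genes. "Fold" in the text is the ratio of group means. Intervals are 95%. Whole reads (within 0.01) were recovered from 100% of values and gave the depth and the tests with edgeR 4.0.16 and DESeq2 1.42.0 (R 4.3.3). Each group has 4 or 5 separate mice, and no replicate libraries were alike (lowest chi-square per gene 9.82 over 64 pairs). The same mouse numbers mark both tissues, so the tissue comparisons were also fitted with the mouse as a block. Of 18 livers, 9 correlated best with their own fat among group mates (r −0.06 to 0.22).

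The 9 genes and the gene lists were chosen with earlier results of these data known. Named genes were the 9, Mlkl, up to 4 called genes of each list by size of change and the 3 nearest genes in pattern to each of the 9. Genes of a list beyond these, and Pfkl in a ratio, were named after their values were seen. Some genes that the rule would name are not reported here. The settings varied were the pseudocount (0.1), the filter (none, or 1 FPKM), FPKM rescaled to an equal sum in each library (TPM scale), edgeR, DESeq2, all 4 groups of a tissue in one fit, leaving out each mouse, and, chosen after seeing the data, leaving out the fat libraries of mice 182, 183 and 156. The limma and edgeR scripts were tested on simulated data, and the DESeq2 script was not. Promoters were read from GRCm39 with GENCODE starts.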

Additional observations from a re-analysis of the deposited data

Results flagged for a closer look

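In groups of 4 or 5 mice, 12 of 60 sets of values had a lowest or highest mouse far from the rest by Dixon's test. Among the fat sets flagged were genes near absent in fat but for their highest mouse, and the sets share libraries. The count is therefore not set against a rate expected by chance. In WT NCD livers, mouse 182 was lowest for Pck1 (1102 FPKM, the nearest mouse at 1824) and for Gckr (58.6 FPKM, nearest 71.0), and highest for Fbp1 (769 FPKM, nearest 616). In Mlkl Adi-KO NCD livers, mouse 166 was lowest for Pck1 (1122 FPKM, nearest 1632).

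In fat of Mlkl Adi-KO HFD mice, mouse 156 was far above the others for 6 genes, at 13.98 FPKM of Fbp1, 4.82 of G6pc, 4.78 of Tat, 2.61 of Pklr, 1.64 of Slc2a2 and 1.01 of Gckr, where the next mouse held 0.329, 0.151, 0.142, 0.0289, 0.217 and 0.0359. Mouse 164 was highest for G6pc in WT HFD fat (0.701 FPKM) and mouse 179 for Pklr in Mlkl Adi-KO NCD fat (1.32 FPKM). The fat of mouse 164 also held 53.2 FPKM of albumin, the most outside mouse 156.

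The diet effect differed between liver and fat of WT mice by the interaction term for Pcx (2.03 on the log2 scale), Pklr (1.80), Slc37a4 (1.42), Tat (−1.67) and Slc2a2 (0.37).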

How the results depend on the processing

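Of 1591 recomputed fold changes of the 9 genes, 1553 kept their direction and side of the threshold, or lay under it throughout. Among these 1553, 63 had the other sign but were never called. Of the rest, 27 lost the call, 6 gained it and 5 that were called in the main test changed sign. These 5 were differences of diet effects between WT liver and fat, for Pklr and Slc2a2, both near absent in fat. Pklr gave −4.82 with edgeR and −4.60 with DESeq2, the latter past the threshold at an adjusted p of 0.0304. Slc2a2 gave −0.49 with edgeR, −0.52 with DESeq2 and −0.085 with a pseudocount of 0.1.

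The number of the 9 called stayed within 1.5 times in most alternatives. On the TPM scale 1 was called for diet in WT fat. With all 4 groups in one fit 1 was called for diet in Mlkl Adi-KO fat, where Pcx was lost. DESeq2 called 1 between genotypes in HFD liver and 4 of the 5 that had an adjusted p between tissues. For the difference of diet effects between tissues, 3 were called with a pseudocount of 0.1 and 3 with edgeR. With the mouse as a replicate block, 8 were called between tissues and 5 for that difference, where Slc2a2 was lost and Pck1 gained, and no other call of the 9 changed. Leaving out each mouse gave 7 to 8 for diet in WT liver, 7 in Mlkl Adi-KO liver, 2 to 3 in WT fat, 1 to 2 in Mlkl Adi-KO fat, 8 between tissues, 4 to 5 for the difference, and 0 elsewhere. Without a filter, Gckr in WT liver (adjusted p = 0.0660), Pcx in WT fat (0.0599) and Slc2a2 (0.0628) were lost. Where a cause is not named, it was not tested.

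Counts over all genes moved more. Between genotypes in HFD liver the 26 became 7 without a filter, 259 with DESeq2 and 9 to 37 without one mouse. In NCD liver the 1 became 3 without a filter and with all groups, 19 with DESeq2 and 1 to 7 without one mouse. In HFD fat the 3 became 5 on the TPM scale, 15 with all groups, 146 with DESeq2 and 3 to 16 without one mouse. In NCD fat the 0 became 2 without a filter, 1 with all groups, 8 with DESeq2, 0 to 1 without one mouse and 3 without mice 182 and 183. The liver interaction went from 2 to 4 with the filter at 1 FPKM, 1 with edgeR, 58 with DESeq2 and 2 to 5 without one mouse, and the fat interaction from 0 to 20 with DESeq2 and 0 to 14 without one mouse. Between tissues 12752 became 20456 without a filter. On the TPM scale the split of called genes, higher against lower, went from 6525 and 6227 to 2794 and 10588 between tissues, and from 2687 and 3214 to 576 and 4017 for the tissue difference.

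With 4 or 5 mice a group, the genotype differences carried wide intervals, and those that passed no threshold are not shown to be 0.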
